A study of Homo sapiens with 16 samples.

Results

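The subject is 33 p53 target genes, taken by gene symbol from 60612 genes in the deposited count table, where each symbol matched 1 row. RNA was sequenced from NCI-H1944, a human lung adenocarcinoma cell line, in 16 libraries. They form 8 groups of 2 libraries, from 4 genotypes each given the MPS1 inhibitor BAY-1217389 (MPS1i, 100 nM) or the solvent DMSO for 48 h, followed by 24 h without drug. SCR is the control line, labelled WT. STING and MAVS are lines labelled as knockouts of 1 gene, and DKO is labelled as a knockout of both, so the 8 groups are each of these 4 lines under DMSO and after MPS1i. The labels say neither whether a line is 1 clone or a pool nor whether the replicates come from separate cultures. P-values here therefore reflect only the variation among these libraries, which may be technical. MPS1 is the spindle checkpoint kinase. STING and MAVS are the adaptors of cytosolic DNA and RNA sensing, and the design asks whether the response to the drug pulse needs them.

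The protein p53 is a transcription factor held at low levels by MDM2, an E3 ubiquitin ligase whose gene p53 itself turns on. DNA damage, chromosome missegregation and prolonged mitosis can stabilise p53, which then raises genes for cell cycle arrest, DNA repair, metabolism, cell death and its own feedback inhibitors. Many of these genes also answer to other signals, such as growth factors, stress kinases and inflammatory pathways. CDKN1A is not a member of the set.

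Library totals ran from 19893784 to 49769938 counts, and all 33 members passed the filter on low counts along with 17950 genes in all. Levels are CPM, counts scaled to a common library size, listed in the order replicate 1 and replicate 2. Changes are log2 fold changes ± their standard error, with p from edgeR's quasi-likelihood test adjusted by the Benjamini-Hochberg method over the 17950 genes. Genes with an adjusted p under 0.05 were called. Where a call was lost without a library or under another setting, the parenthesis holds the adjusted p without that 1 library or under that setting. The 6 immune markers summed to between 0.246 and 1.81 CPM per library and the 6 stromal and endothelial markers to between 4.39 and 10.6 CPM. Both sums were higher after MPS1i than under DMSO in every genotype, as was the lung epithelial sum. That sum was mostly KRT8 and KRT18, which averaged 1758 and 962 CPM and were higher after MPS1i in every genotype. CDH1 and EPCAM were lower after MPS1i in every genotype. CDH1 went from 69.0 and 68.5 to 61.0 and 62.8 CPM in SCR and from 51.2 and 52.5 to 36.7 and 38.9 in DKO. PTPRC and CD3E had at most 5 counts in any library. Of 10 lung epithelial markers 6 averaged over 1 CPM, summing to between 2549 and 3642 CPM with the other 4, while NKX2-1, SFTPB and KRT19 had at most 4 counts in any library. The part of these markers in the results below was not tested. STING1 read 8.25 and 8.30 CPM in SCR DMSO, 3.78 and 3.70 in STING DMSO and 4.90 and 4.83 in DKO DMSO. MAVS read 189 and 183 CPM in SCR DMSO, 195 and 196 in MAVS DMSO and 222 and 208 in DKO DMSO, so its transcript does not check the MAVS and DKO labels, which are used here as labels only.

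A search of RefSeq promoter windows (GRCh38.p14, 250 bases before to 50 after each start, 26 of 33 members matched) for exact copies of the p53 half-site consensus found 7 members with a match, shown because they are the matches the counts rest on, in genes that rose, fell or did not pass. Capitals mark the half-site, sequences read 5′ to 3′ on the gene's strand, and the consensus reads the same on both strands. Among all 35116 windows 6.63% held a half-site, and among the members' 40 windows 17.5% did. Counted by gene, the shares were 8.06% of all genes with a window and 26.9% of the 26 members. A pair of half-sites 0 to 13 bases apart was found for 10 of 27305 genes with a window (0.0366%) and for 1 of the 26 members (3.85%), DDB2.
PLK2, chr5:58460199-58460228, minus strand: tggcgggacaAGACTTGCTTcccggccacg
AEN, chr15:88621296-88621325, plus strand: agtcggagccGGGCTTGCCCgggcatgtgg
FDXR, chr17:74872986-74873015, minus strand: gggcaggagcGGGCTTGCCCtgcggagcag
RPS27L, chr15:63157517-63157546, minus strand: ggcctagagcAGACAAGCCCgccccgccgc
DDB2, chr11:47214979-47214999, plus strand: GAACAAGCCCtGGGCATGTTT
EI24, chr11:125569457-125569486, plus strand: cgtgcggcccGGGCATGCCCagtgcgggcg
SESN1, chr6:109009018-109009047, minus strand: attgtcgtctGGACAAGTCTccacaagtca
The DDB2 pair begins 5 bases past its RefSeq start. The other half-sites begin between 10 and 132 bases before theirs. In GENCODE 29 (GRCh38) all but the SESN1 match lie in an annotated exon and untranslated region of some transcript of the same gene. The gene coordinates printed below are those of the count table, whose spans for PLK2 and AEN are shorter and leave their matches outside. A match is a description of these letters, and members without one may hold sites outside this window.

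After the MPS1i pulse the set split in SCR cells rather than moving one way. Of 33 members 10 rose, against 26% of all genes tested, and 11 fell, against 24%, so neither share stood far from that of all genes. In bulk RNA, fewer cells expressing a gene and less RNA per cell cannot be told apart. The median was 0.00 on the log2 scale, beside 0.03 for all genes. In STING 12 members rose (15.5% of all genes) and 4 fell (13.9%), with a median of 0.16. In MAVS 11 rose (17.1%) and 8 fell (16.3%), with a median of 0.05. In DKO 12 rose (6.53%) and 2 fell (8.22%), with a median of 0.21 beside 0.00 for all genes. The rising counts of members depended on single libraries, and the rising counts of all genes tested also fell in each case named here. Leaving out STING DMSO replicate 2 gave 6 in STING, and leaving out STING MPS1i replicate 1 gave 7. The MAVS count was 7 and 6 without MAVS DMSO replicate 1 and 2, and 6 without either MAVS MPS1i replicate. The DKO count was 7, 7 and 6 without DKO DMSO replicate 2, DKO MPS1i replicate 1 and DKO MPS1i replicate 2. The falling count was 5 in MAVS without MAVS DMSO replicate 2 and 0 in DKO without any 1 of DKO DMSO replicate 2 and the MPS1i replicates.

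**Figure D1:**
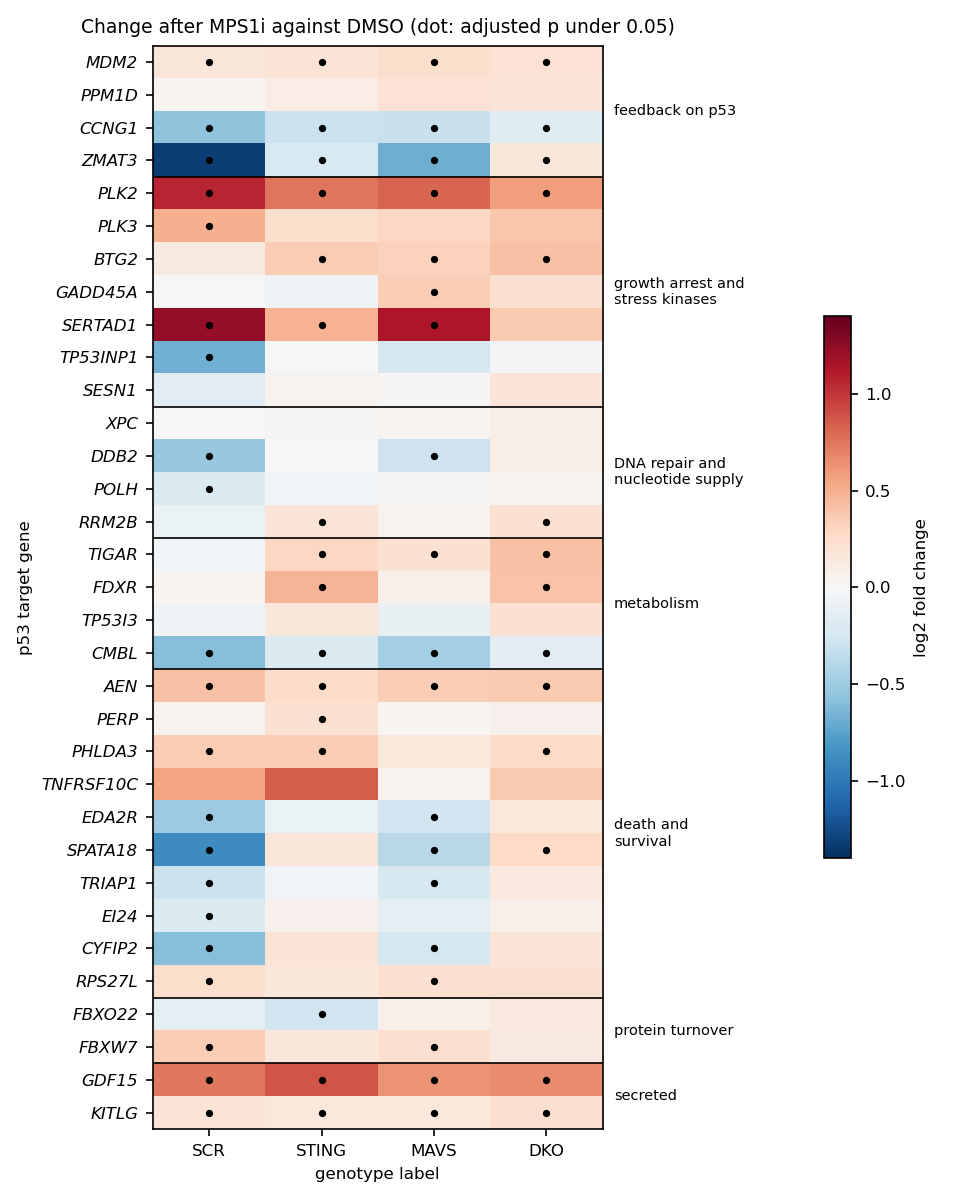
Log2 fold change after MPS1i against DMSO for the 33 p53 targets (rows, by role) in the 4 genotypes (columns), with red for higher, blue for lower and a dot where adjusted p was under 0.05. SCR has 11 blue called cells, STING 4, MAVS 8 and DKO 2, while PLK2, GDF15, MDM2, AEN and KITLG are called higher in every column.

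The 11 members that fell in SCR were ZMAT3, SPATA18, TP53INP1, CYFIP2, CMBL, CCNG1, DDB2, EDA2R, TRIAP1, POLH and EI24. All but POLH kept the call under every alternative tried, and POLH lost it without SCR DMSO replicate 1 (0.35) or SCR MPS1i replicate 1 (0.23) and with DESeq2 (0.058). In the other genotypes, whose libraries are separate from those of SCR, 3 of the 11 fell in STING (27.3% of this list and 75% of the 4 that fell there), 8 in MAVS (72.7%, and 100% of the 8), and 2 in DKO (18.2%, and 100% of the 2), where 2 others rose. The matching overlap over all genes that fell in SCR was not computed, so these shares cannot be called particular to the members. The 11 had a median change of -0.56 in SCR, -0.04 in STING, -0.27 in MAVS and 0.09 in DKO. The 10 members that rose in SCR had medians of 0.39, 0.25, 0.26 and 0.32 in the same order. Both lists were picked by their call in SCR. That choice draws their SCR medians away from 0, so SCR is not on equal terms with the other lines here. SCR MPS1i had the lowest mean of the 8 groups for 14 of 33 members, and DKO MPS1i the highest for 22. Over all genes tested these groups were the lowest for 23.9% and the highest for 13.9%.

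Among the genes of the p53 feedback loop, MDM2, the ligase that degrades p53 (ENSG00000135679, chromosome 12, 68808177 to 68845544, plus strand, GRCh38), rose slightly in all 4 genotypes. It stood at 1065 and 1082 CPM in SCR DMSO and 1178 and 1229 in SCR MPS1i. MDM2 read 975 and 1007 against 1146 and 1113 in STING, 938 and 949 against 1147 and 1084 in MAVS, and 839 and 939 against 1029 and 1024 in DKO. In each genotype both MPS1i libraries lay above both DMSO libraries. The changes were 0.17 ± 0.05, 0.19 ± 0.05, 0.24 ± 0.05 and 0.21 ± 0.05 (adjusted p = 0.0052, 0.0038, 0.00027 and 0.0034). Only the MAVS call held under every alternative. The others were lost without SCR DMSO replicate 1 (0.064) or SCR MPS1i replicate 2 (0.08), STING DMSO replicate 1 (0.073) or DKO DMSO replicate 1 (0.062). Per kilobase of merged exons (GENCODE 29), MDM2 read 84.4 CPM in SCR DMSO, below PERP and CMBL and beside GDF15 at 83.9, against a median of 8.47 over the 33. MDM2 and GDF15 did not differ beyond the spread of the 2 libraries. PPM1D, a phosphatase that dephosphorylates p53 and its kinases, had changes of 0.03, 0.10, 0.20 and 0.18, none of which passed. Its MAVS change did pass with only the compared groups fitted (adjusted p = 0.031) and with a replicate block (0.042).

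ZMAT3, a zinc finger protein that binds RNA (ENSG00000172667, chromosome 3, 178960121 to 179072215, minus strand), was the member with the deepest fall and the widest range between groups, 5.01-fold from its lowest to its highest group mean. It read 64.1 and 67.7 CPM in SCR DMSO and 25.9 and 27.0 in SCR MPS1i. ZMAT3 read 83.9 and 85.9 against 71.5 and 74.4 in STING, 66.4 and 66.3 against 42.6 and 40.3 in MAVS, and 116 and 121 against 130.1 and 135 in DKO. The MPS1i libraries lay below the DMSO libraries in SCR, STING and MAVS and above them in DKO, with no overlap. The change was -1.31 ± 0.06 in SCR (adjusted p = 2.1e-16), -0.22 ± 0.05 in STING (0.0032), -0.68 ± 0.06 in MAVS (3.2e-10) and 0.16 ± 0.05 in DKO (0.034). The rise in DKO was lost without DKO DMSO replicate 1 (0.17), DKO MPS1i replicate 1 (0.081) or DKO MPS1i replicate 2 (0.26) and without a filter on low counts (0.087) and with only the compared groups fitted (0.13). CCNG1, cyclin G1, which works with MDM2 and the phosphatase PP2A, fell in all 4 genotypes. It read 138 and 145 CPM in SCR DMSO and 90.1 and 102 in SCR MPS1i. CCNG1 read 132 and 136 against 112 and 106 in STING, 138 and 138 against 113 and 110.3 in MAVS, and 138 and 143 against 124 and 126 in DKO, with each MPS1i pair below its DMSO pair. The falls were by 0.56, 0.30, 0.31 and 0.17 on the log2 scale (adjusted p = 1.8e-09, 0.00015, 6.4e-05 and 0.029), the DKO call being lost without DKO DMSO replicate 2 (0.12), DKO MPS1i replicate 1 (0.17) or DKO MPS1i replicate 2 (0.085) and with only the compared groups fitted (0.089).

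**Figure D2:**
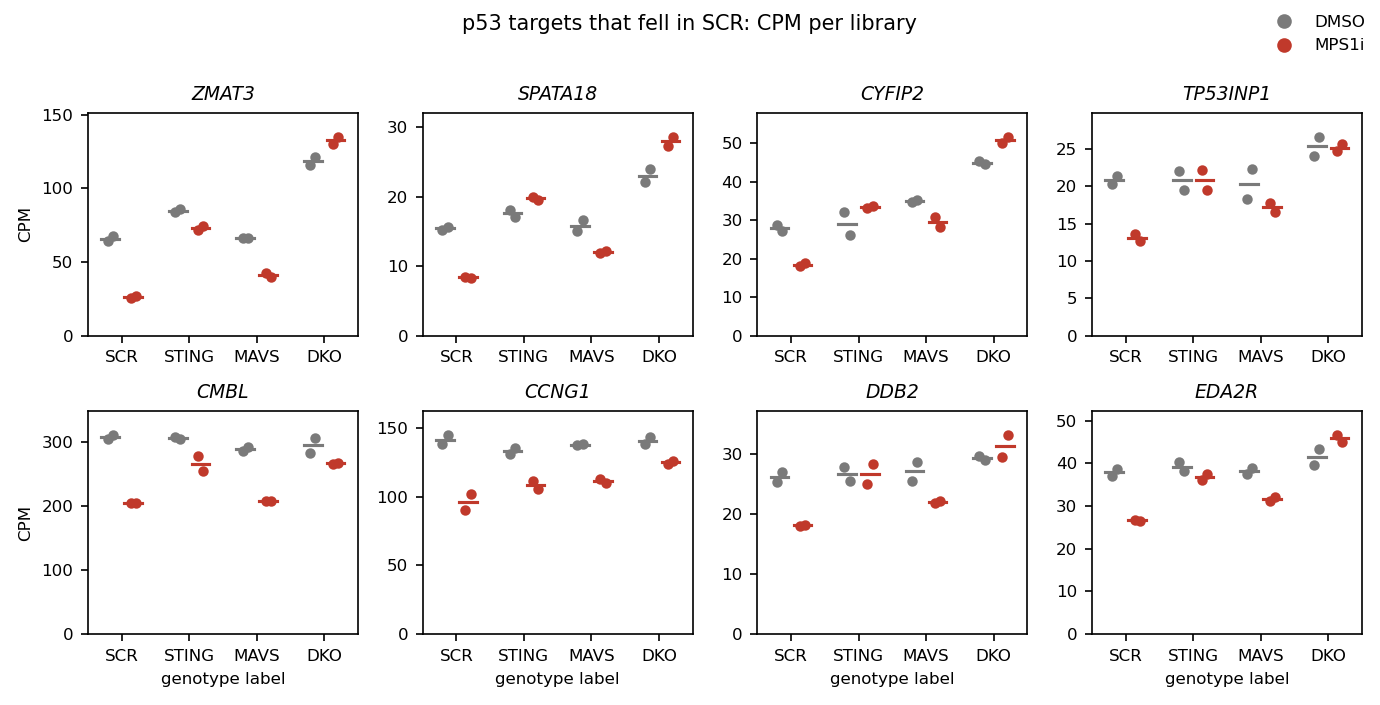
CPM (y axis, from 0) of 8 members that fell in SCR, by genotype label (x axis), with grey points for the 2 DMSO libraries, red for the 2 MPS1i libraries and a bar at the mean. ZMAT3 goes from 64.1 and 67.7 to 25.9 and 27.0 CPM in SCR and from 116 and 121 to 130.1 and 135 CPM in DKO, and after MPS1i SPATA18 and CYFIP2 are lowest in SCR and highest in DKO.

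Among the growth arrest and stress genes, PLK2, a polo-like kinase of the stress response (ENSG00000145632, chromosome 5, 58453982 to 58460139, minus strand), read 115 and 118 CPM in SCR DMSO and 238 and 249.98 in SCR MPS1i. PLK2 read 131 and 126 against 215 and 219 in STING, 133 and 129.6 against 224 and 236 in MAVS, and 194 and 201 against 301 and 292 in DKO. Every MPS1i library lay above every DMSO library of its own genotype. Its rise was 1.06 ± 0.05 in SCR, 0.75 ± 0.05 in STING, 0.81 ± 0.05 in MAVS and 0.59 ± 0.05 in DKO (adjusted p = 3.9e-16, 3.2e-12, 4e-13 and 9.6e-10), and these 4 calls held under every alternative tried. SERTAD1, a CDK4-binding transcriptional coregulator, read 3.73 and 4.19 CPM in SCR DMSO and 9.65 and 8.88 in SCR MPS1i. SERTAD1 read 3.61 and 4.43 against 5.91 and 5.30 in STING, 3.82 and 2.69 against 7.78 and 6.75 in MAVS, and 3.25 and 3.22 against 3.83 and 4.64 in DKO. It rose in SCR by 1.23 ± 0.15 and in MAVS by 1.13 ± 0.16 (adjusted p = 9.3e-08 and 5e-06), and in STING by 0.48 ± 0.17 (0.032), a call lost without STING DMSO replicate 1 (0.29), STING MPS1i replicate 1 (0.17) or STING MPS1i replicate 2 (0.062) and with DESeq2 (0.092). In DKO it stood at 0.37 ± 0.17 (0.16).

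BTG2, an antiproliferative gene that binds the deadenylase complex, read 18.3 and 18.1 CPM in SCR DMSO and 20.5 and 19.3 in SCR MPS1i. BTG2 read 15.7 and 13.3 against 20.3 and 16.9 in STING, 17.5 and 14.1 against 19.3 and 20.5 in MAVS, and 18.4 and 16.4 against 24.4 and 21.4 in DKO. The groups did not overlap within any genotype, and it rose in STING, MAVS and DKO by 0.35 ± 0.11, 0.32 ± 0.11 and 0.41 ± 0.11 (adjusted p = 0.021, 0.024 and 0.0088), while SCR stood at 0.13 ± 0.10 (0.32). Each BTG2 call was lost without 1 library, namely STING DMSO replicate 2 (0.28) or STING MPS1i replicate 1 (0.27), MAVS DMSO replicate 2 (0.36), MAVS MPS1i replicate 1 (0.06) or MAVS MPS1i replicate 2 (0.18), or DKO DMSO replicate 2 (0.12) or DKO MPS1i replicate 1 (0.19). PLK3, a kinase related to PLK2, read 5.60 and 4.16 CPM in SCR DMSO and 7.37 and 6.56 in SCR MPS1i. PLK3 read 5.71 and 5.59 against 6.18 and 7.20 in STING, 5.52 and 5.12 against 6.41 and 6.62 in MAVS, and 5.05 and 5.80 against 6.22 and 8.28 in DKO. It rose in SCR by 0.49 ± 0.15 (adjusted p = 0.0066), a call lost without SCR DMSO replicate 2 (0.17) or SCR MPS1i replicate 1 (0.089). GADD45A, a growth arrest gene induced by DNA damage, read 17.8 and 18.4 CPM in SCR DMSO and 18.4 and 17.9 in SCR MPS1i. GADD45A read 15.2 and 14.4 against 14.5 and 14.1 in STING, 14.9 and 13.7 against 17.7 and 18.8 in MAVS, and 16.3 and 16.2 against 19.1 and 18.7 in DKO. Its rise in MAVS, by 0.35 ± 0.08 (0.0015), was the one GADD45A treatment call and it held. TP53INP1, which promotes autophagy and p53 phosphorylation, went the other way. It read 20.3 and 21.4 CPM in SCR DMSO and 13.6 and 12.7 in SCR MPS1i. TP53INP1 read 22.1 and 19.6 against 22.2 and 19.5 in STING, 18.3 and 22.3 against 17.8 and 16.6 in MAVS, and 24.1 and 26.6 against 24.7 and 25.7 in DKO. The MPS1i libraries lay below the DMSO libraries in SCR and MAVS, and the STING and DKO groups overlapped. TP53INP1 fell in SCR by 0.67 on the log2 scale (1.3e-06) and stood at 0.00 ± 0.10, -0.23 ± 0.10 and -0.02 ± 0.09 in the other lines. SESN1, a sestrin that restrains mTORC1, passed in no genotype, with changes from -0.16 in SCR to 0.18 in DKO.

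**Figure D3:**
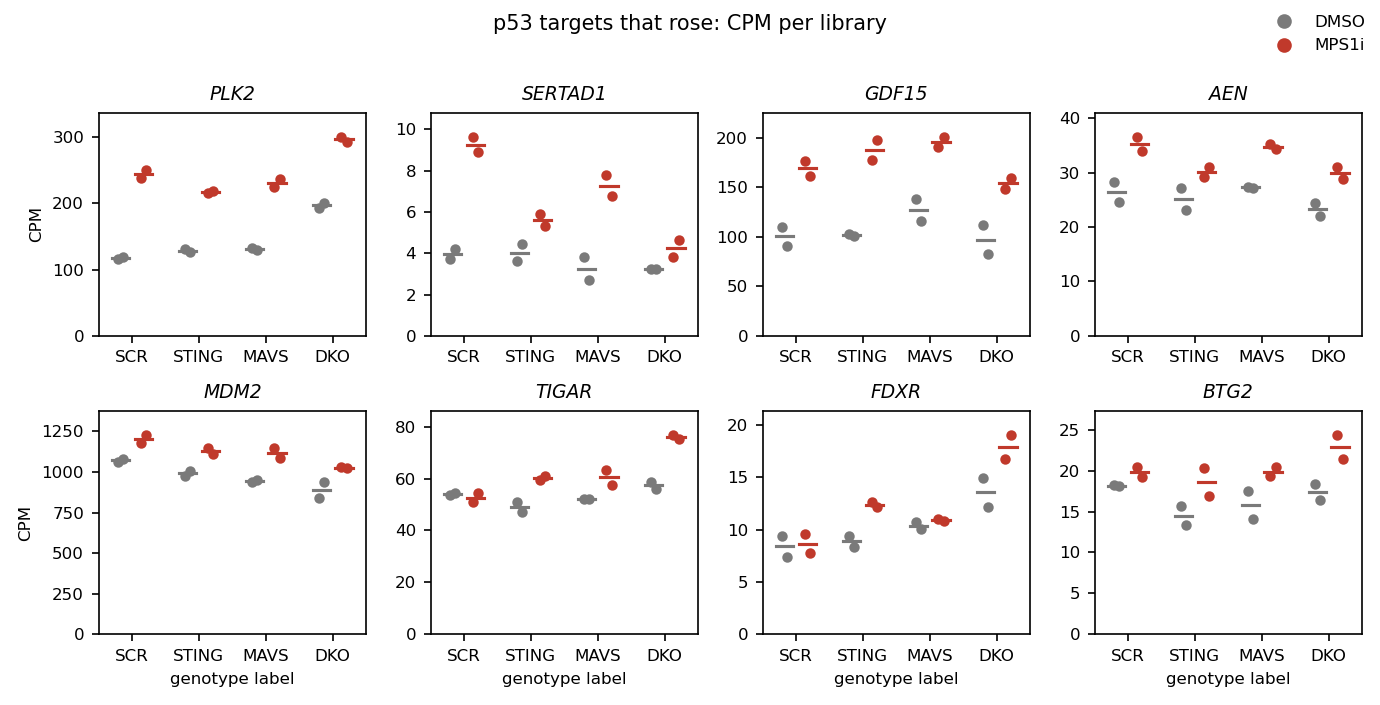
CPM (y axis, from 0) of 8 members that rose in at least 1 genotype, by genotype label (x axis), with grey points for DMSO libraries, red for MPS1i libraries and a bar at the mean of 2. PLK2 reaches 238 and 249.98 CPM in SCR MPS1i and 301 and 292 CPM in DKO MPS1i, where the DMSO libraries already stand at 194 and 201 CPM.

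Of the DNA repair members, DDB2, the damage recognition subunit that starts nucleotide excision repair, whose paired site is printed above, read 25.4 and 27.0 CPM in SCR DMSO and 18.0 and 18.2 in SCR MPS1i. DDB2 read 27.8 and 25.5 against 25.0 and 28.3 in STING, 25.4 and 28.7 against 21.8 and 22.2 in MAVS, and 29.6 and 28.9 against 29.5 and 33.2 in DKO. SCR and MAVS were lower after MPS1i with no overlap, and the STING groups overlapped. DDB2 fell by 0.53 in SCR and by 0.29 in MAVS on the log2 scale (adjusted p = 5e-06 and 0.0078), the latter lost without MAVS DMSO replicate 2 (0.12), and stood at 0.00 ± 0.08 in STING and 0.09 ± 0.08 in DKO. POLH, a polymerase that copies past ultraviolet lesions, fell in SCR by 0.20 (0.03), a call lost without SCR DMSO replicate 1 (0.35) or SCR MPS1i replicate 1 (0.23). RRM2B, the p53-inducible subunit of ribonucleotide reductase, rose in STING by 0.18 ± 0.05 and in DKO by 0.21 ± 0.05 (0.0042 and 0.0026), calls that were lost without STING DMSO replicate 1 (0.098) or STING MPS1i replicate 1 (0.054) or without DKO MPS1i replicate 2 (0.059). XPC, the DNA damage sensor of excision repair, had changes between -0.02 and 0.08, none of which passed.

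In the metabolic group TIGAR, a fructose bisphosphatase that diverts sugar from glycolysis, read 53.6 and 54.6 CPM in SCR DMSO and 50.8 and 54.7 in SCR MPS1i. TIGAR read 51.0 and 47.2 against 59.4 and 61.2 in STING, 52.0 and 52.0 against 63.3 and 57.6 in MAVS, and 58.6 and 56.2 against 76.9 and 75.4 in DKO. The SCR groups overlapped and the others did not. TIGAR rose in STING by 0.29 ± 0.06, in MAVS by 0.22 ± 0.06 and in DKO by 0.41 ± 0.06 (adjusted p = 0.00071, 0.0069 and 1.8e-05), and stood at -0.04 ± 0.06 in SCR. The MAVS call was lost without MAVS DMSO replicate 1 (0.078), MAVS DMSO replicate 2 (0.056) or MAVS MPS1i replicate 1 (0.19). FDXR, the mitochondrial ferredoxin reductase, read 9.37 and 7.40 CPM in SCR DMSO and 9.54 and 7.79 in SCR MPS1i. FDXR read 9.41 and 8.37 against 12.6 and 12.1 in STING, 10.7 and 10.0 against 11.0 and 10.8 in MAVS, and 14.95 and 12.2 against 16.8 and 19.1 in DKO. It rose in STING by 0.47 ± 0.13 and in DKO by 0.40 ± 0.12 (0.0087 and 0.022), calls that were lost without STING DMSO replicate 2 (0.12) or STING MPS1i replicate 1 (0.057) or without DKO DMSO replicate 2 (0.3) or DKO MPS1i replicate 2 (0.22). CMBL, a carboxymethylenebutenolidase homologue, read 306 and 312 CPM in SCR DMSO and 205 and 205 in SCR MPS1i. CMBL read 308 and 306 against 278 and 255.2 in STING, 286 and 293 against 209 and 209 in MAVS, and 283 and 307 against 267 and 267 in DKO. It was lower after MPS1i in each genotype without overlap, by 0.59, 0.20, 0.47 and 0.14 on the log2 scale (6.5e-11, 0.0019, 1.4e-08 and 0.038). The STING call was lost without STING MPS1i replicate 2 (0.056) and the DKO call without DKO DMSO replicate 2 (0.28), DKO MPS1i replicate 1 (0.15) or DKO MPS1i replicate 2 (0.11) and with RLE scaling (0.053) and with only the compared groups fitted (0.16). TP53I3, a quinone oxidoreductase, stood between -0.11 and 0.21 and passed nowhere.

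Death and survival members went both ways. AEN, a nuclease of apoptosis, read 28.2 and 24.6 CPM in SCR DMSO and 36.6 and 34.0 in SCR MPS1i. AEN read 27.1 and 23.2 against 29.1 and 31.1 in STING, 27.3 and 27.2 against 35.3 and 34.3 in MAVS, and 24.4 and 22.0 against 31.0 and 28.8 in DKO. Both MPS1i libraries lay above both DMSO libraries in each genotype, and the rises were 0.41 ± 0.08, 0.26 ± 0.09, 0.35 ± 0.08 and 0.37 ± 0.09 (adjusted p = 0.0001, 0.026, 0.0018 and 0.0032). The AEN call was lost in STING without STING DMSO replicate 2 (0.41) or STING MPS1i replicate 2 (0.23) and with DESeq2 (0.052), and in DKO without DKO DMSO replicate 2 (0.067) or DKO MPS1i replicate 1 (0.091). PHLDA3, which blocks AKT at the membrane, read 24.8 and 21.4 CPM in SCR DMSO and 31.8 and 27.8 in SCR MPS1i. PHLDA3 read 24.8 and 24.3 against 30.3 and 31.9 in STING, 27.0 and 26.3 against 28.6 and 30.4 in MAVS, and 33.7 and 26.8 against 36.7 and 35.8 in DKO. It rose in SCR, STING and DKO by 0.36 ± 0.09, 0.34 ± 0.10 and 0.27 ± 0.09 (0.0017, 0.0097 and 0.047), each call being lost without single libraries, SCR DMSO replicate 2 (0.071) or SCR MPS1i replicate 1 (0.073), STING DMSO replicate 1 (0.06), STING DMSO replicate 2 (0.097) or STING MPS1i replicate 2 (0.1), or DKO DMSO replicate 2 (0.57), DKO MPS1i replicate 1 (0.25) or DKO MPS1i replicate 2 (0.14), and in DKO also with only the compared groups fitted (0.12) and with DESeq2 (0.058). RPS27L, a ribosomal protein paralog that binds MDM2, rose in SCR by 0.25 ± 0.08 and in MAVS by 0.23 ± 0.09 (0.02 and 0.049), lost without SCR DMSO replicate 1 (0.26) or SCR MPS1i replicate 2 (0.28) or without MAVS DMSO replicate 1 (0.33), MAVS DMSO replicate 2 (0.11), MAVS MPS1i replicate 1 (0.14) or MAVS MPS1i replicate 2 (0.2), and in MAVS also with RLE scaling (0.059). Its paralog RPS27 may share reads with it, and how such reads were counted is not given in the sources used here. PERP, a desmosomal p53 effector, rose in STING by 0.21 ± 0.05 (0.00092), lost without STING DMSO replicate 2 (0.067).

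SPATA18, a mitochondrial quality control gene also called MIEAP (ENSG00000163071, chromosome 4, 52051304 to 52097299, plus strand), was the second deepest fall. It read 15.1 and 15.7 CPM in SCR DMSO and 8.47 and 8.34 in SCR MPS1i. SPATA18 read 18.1 and 17.1 against 19.9 and 19.6 in STING, 15.1 and 16.6 against 11.9 and 12.2 in MAVS, and 22.1 and 23.9 against 27.3 and 28.6 in DKO. The MPS1i libraries lay below the DMSO libraries in SCR and MAVS and above them in STING and DKO. It fell by 0.88 in SCR and 0.39 in MAVS on the log2 scale (adjusted p = 2.2e-09 and 0.00076), stood at 0.16 ± 0.08 in STING and rose in DKO by 0.28 ± 0.08 (0.014), a call lost without DKO DMSO replicate 1 (0.095), DKO MPS1i replicate 1 (0.051) or DKO MPS1i replicate 2 (0.12) and with only the compared groups fitted (0.072). CYFIP2, an actin regulator linked to apoptosis, read 28.7 and 27.2 CPM in SCR DMSO and 18.1 and 18.8 in SCR MPS1i. CYFIP2 read 32.2 and 26.0 against 33.1 and 33.7 in STING, 34.7 and 35.1 against 30.9 and 28.1 in MAVS, and 45.2 and 44.5 against 50.05 and 51.7 in DKO. It fell by 0.60 in SCR and 0.24 in MAVS (5.3e-07 and 0.018, the latter lost without MAVS DMSO replicate 2 (0.065) or MAVS MPS1i replicate 2 (0.15)), and stood at 0.19 ± 0.08 and 0.18 ± 0.07 in STING and DKO. EDA2R, a TNF receptor family member, read 37.1 and 38.8 CPM in SCR DMSO and 26.8 and 26.6 in SCR MPS1i. EDA2R read 40.2 and 38.2 against 36.1 and 37.6 in STING, 37.5 and 38.9 against 31.3 and 32.0 in MAVS, and 39.5 and 43.2 against 46.7 and 45.1 in DKO, with lower MPS1i libraries in SCR, STING and MAVS and higher ones in DKO. The EDA2R falls were by 0.51 in SCR and 0.27 in MAVS (2.8e-07 and 0.0023).

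TRIAP1, a small mitochondrial survival protein, fell by 0.30 in SCR and 0.22 in MAVS on the log2 scale (adjusted p = 0.00062 and 0.019), the MAVS call being lost without MAVS DMSO replicate 2 (0.14) or MAVS MPS1i replicate 2 (0.086). EI24, an endoplasmic reticulum protein of autophagy, fell in SCR by 0.20 (0.0028). TNFRSF10C, a TRAIL decoy receptor, had between 0.341 and 1.16 CPM, and its changes of 0.55 ± 0.39, 0.85 ± 0.46, 0.05 ± 0.39 and 0.37 ± 0.40 had errors too wide at this depth to show a difference of that size.

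The F-box genes and the secreted factors complete the set. FBXW7, which marks cyclin E and MYC for degradation, rose in SCR by 0.34 ± 0.07 and in MAVS by 0.22 ± 0.08 (adjusted p = 0.00037 and 0.03), the MAVS call lost without MAVS DMSO replicate 1 (0.49), MAVS MPS1i replicate 1 (0.072) or MAVS MPS1i replicate 2 (0.22) and with DESeq2 (0.064). FBXO22, an F-box protein that takes part in p53 turnover, read 45.8 and 53.03 CPM under DMSO and 41.3 and 39.8 after MPS1i in the STING line, a fall by 0.28 on the log2 scale (0.0038) that was lost without STING DMSO replicate 2 (0.093). GDF15, a stress cytokine that ATF4 also induces, read 110.3 and 91.1 CPM in SCR DMSO and 176 and 162 in SCR MPS1i. GDF15 read 103 and 100.4 against 177 and 198 in STING, 138 and 115 against 190.3 and 201 in MAVS, and 112 and 82.9 against 148 and 159.8 in DKO. Each MPS1i library exceeded both DMSO libraries of its genotype, and GDF15 rose by 0.74 ± 0.15, 0.88 ± 0.15, 0.62 ± 0.15 and 0.67 ± 0.15 (0.0026, 0.0025, 0.011 and 0.02). The calls in MAVS and DKO were lost without MAVS DMSO replicate 2 (0.097) or MAVS MPS1i replicate 2 (0.074) or without DKO DMSO replicate 2 (0.12), DKO MPS1i replicate 1 (0.074) or DKO MPS1i replicate 2 (0.11), and in DKO also with only the compared groups fitted (0.095). KITLG, the ligand of the KIT receptor, read 153 and 159.5 CPM in SCR DMSO and 170.4 and 184 in SCR MPS1i. KITLG read 154 and 158 against 179.9 and 165 in STING, 145 and 144 against 161 and 159 in MAVS, and 151 and 166 against 182 and 188 in DKO. The MPS1i libraries were the higher ones throughout, by 0.18 ± 0.05, 0.14 ± 0.05, 0.14 ± 0.05 and 0.22 ± 0.05 (0.0057, 0.047, 0.043 and 0.005). In every genotype the KITLG call was lost without single libraries, SCR DMSO replicate 1 (0.1) or SCR MPS1i replicate 2 (0.14) in SCR, STING DMSO replicate 1 (0.24), STING DMSO replicate 2 (0.17) or STING MPS1i replicate 1 (0.44) in STING, MAVS DMSO replicate 1 (0.22), MAVS DMSO replicate 2 (0.19), MAVS MPS1i replicate 1 (0.22) or MAVS MPS1i replicate 2 (0.15) in MAVS, and DKO DMSO replicate 1 (0.066) or DKO MPS1i replicate 2 (0.072) in DKO. The STING call was also lost with RLE scaling (0.062), without a filter on low counts (0.089) and with DESeq2 (0.071), and the MAVS call with RLE scaling (0.057), without a filter on low counts (0.058) and with DESeq2 (0.065).

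The question of whether the response differed from that of SCR was tested as a difference of treatment effects. These tests and the change in SCR share the SCR libraries. Relative to SCR, 14 members had a higher change in DKO (13.5% of all genes) and 2 a lower one (14.5%). For STING these were 11 (9.97%) and 2 (9.55%), and for MAVS 4 (2.92%) and 1 (4.52%). The lower counts rest on single libraries, being 1 in DKO without DKO MPS1i replicate 1, 1 in STING without SCR DMSO replicate 1, SCR MPS1i replicate 1, STING DMSO replicate 2 or STING MPS1i replicate 2, and 0 in MAVS without SCR DMSO replicate 1, SCR MPS1i replicate 2, MAVS DMSO replicate 1 or MAVS MPS1i replicate 1. The higher MAVS count fell to 2 without SCR DMSO replicate 2, either SCR MPS1i replicate or MAVS MPS1i replicate 1, and to 1 without MAVS DMSO replicate 1. ZMAT3 had the largest differences, 1.10 ± 0.08 in STING, 0.63 ± 0.08 in MAVS and 1.47 ± 0.08 in DKO (adjusted p = 1.4e-10, 3.3e-06 and 4.2e-14), and all 3 held under every alternative. SPATA18 differed by 1.04 ± 0.12 in STING and 1.15 ± 0.11 in DKO, CYFIP2 by 0.80 ± 0.11 and 0.78 ± 0.11, TP53INP1 by 0.67 ± 0.13 and 0.65 ± 0.13, DDB2 by 0.53 ± 0.12 and 0.62 ± 0.11 and EDA2R by 0.41 ± 0.09 and 0.65 ± 0.09, and these too held. PLK2 rose less than in SCR, by a difference of -0.31 ± 0.07 in STING and -0.48 ± 0.07 in DKO (0.0012 and 2.6e-06), which held. SERTAD1 had a difference of -0.75 ± 0.22 in STING and in DKO of -0.86 ± 0.23, calls that were lost without SCR DMSO replicate 1 (0.092), SCR MPS1i replicate 1 (0.075), STING DMSO replicate 2 (0.12) or STING MPS1i replicate 2 (0.08) in STING, also with DESeq2 (0.052), and in DKO without DKO MPS1i replicate 1 (0.057). For MDM2, GDF15, AEN and KITLG no difference passed, the largest being -0.16 ± 0.12 for AEN in STING and 0.14 ± 0.21 for GDF15 in STING.

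**Figure D4:**
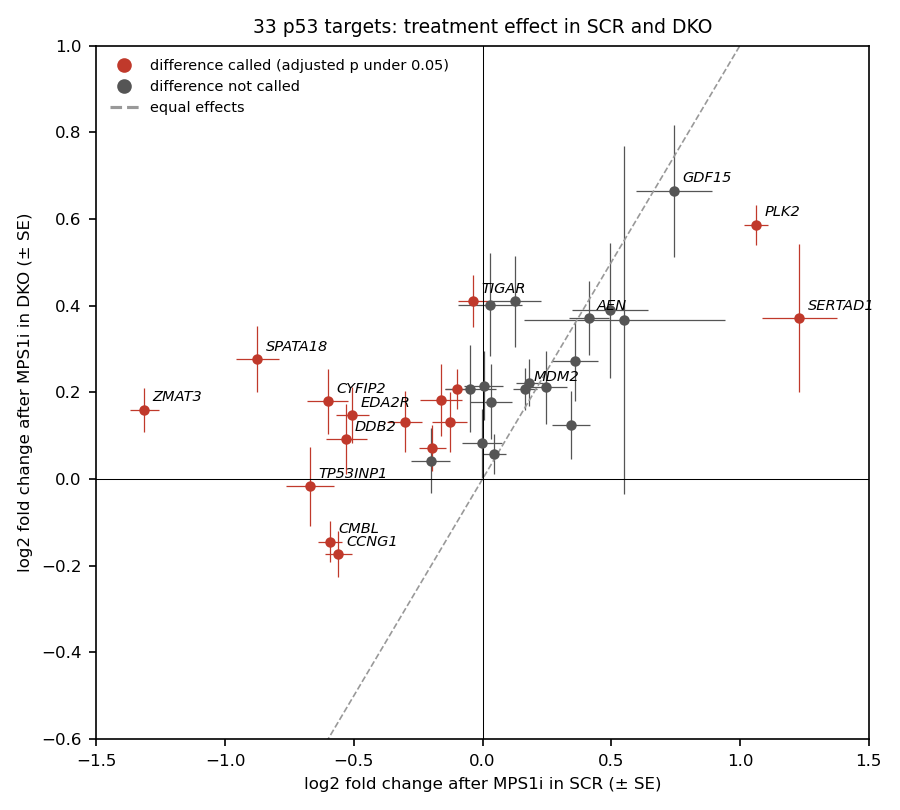
Log2 fold change after MPS1i in DKO (y axis) against that in SCR (x axis) for the 33 p53 targets, with bars of 1 standard error, red where the difference between the genotypes passed an adjusted p under 0.05, and a dashed line at equal effects. ZMAT3 lies at -1.31 in SCR and 0.16 in DKO, PLK2 at 1.06 and 0.59, and GDF15, AEN and MDM2 lie near it.

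The genotypes also differed before the pulse, most in DKO. Against SCR under DMSO 9 members were higher in DKO (15.8% of all genes) and 2 lower (15.3%). In STING 1 was higher (4.7%) and 1 lower (5.47%), and in MAVS 2 were higher (3.98%) and 2 lower (2.57%). These comparisons share the SCR DMSO libraries. In DKO, ZMAT3 was higher by 0.85 ± 0.05, PLK2 by 0.76 ± 0.05, CYFIP2 by 0.68 ± 0.08, FDXR by 0.67 ± 0.12 and SPATA18 by 0.58 ± 0.08 (adjusted p = 2e-12, 2.5e-12, 1.1e-07, 0.00012 and 1.8e-06). MDM2 was lower there by 0.27 on the log2 scale (8e-05). PPM1D was lower by 0.23 (0.041), a call lost without SCR DMSO replicate 1 (0.08), SCR DMSO replicate 2 (0.13) or DKO DMSO replicate 1 (0.17) and with only the compared groups fitted (0.077) and with DESeq2 (0.055). ZMAT3 was higher in STING by 0.37 ± 0.05 (3.7e-05), which held. GADD45A was lower in STING by 0.29 and in MAVS by 0.33 (0.021 and 0.012), calls that were lost without SCR DMSO replicate 2 (0.096), STING DMSO replicate 1 (0.088) or STING DMSO replicate 2 (0.2) in STING, also with DESeq2 (0.06), and in MAVS without SCR DMSO replicate 2 (0.086), MAVS DMSO replicate 1 (0.055) or MAVS DMSO replicate 2 (0.14). The other MAVS calls, CYFIP2 at 0.32 ± 0.08, PLK2 at 0.17 ± 0.05 and MDM2 at -0.19 ± 0.05, were lost without SCR DMSO replicate 2 (0.14), MAVS DMSO replicate 1 (0.1) or MAVS DMSO replicate 2 (0.063) for CYFIP2, SCR DMSO replicate 1 (0.16), SCR DMSO replicate 2 (0.1), MAVS DMSO replicate 1 (0.26) or MAVS DMSO replicate 2 (0.062) for PLK2 (also without a filter on low counts (0.067)), and SCR DMSO replicate 2 (0.099), MAVS DMSO replicate 1 (0.16) or MAVS DMSO replicate 2 (0.078) for MDM2. The MAVS counts thus went to 0 higher and 0 lower without SCR DMSO replicate 2 or either MAVS DMSO replicate, with 1 higher without SCR DMSO replicate 1.

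MDM4, the MDM2 relative that silences p53, read 88.9 and 90.4 CPM in SCR DMSO and 81.7 and 83.9 in SCR MPS1i. MDM4 read 86.5 and 87.0 against 66.8 and 62.9 in STING, 75.9 and 73.4 against 77.7 and 74.0 in MAVS, and 64.7 and 70.2 against 54.8 and 58.2 in DKO. It fell in STING by 0.42 and in DKO by 0.26 (2e-06 and 0.002), the latter lost without DKO MPS1i replicate 1 (0.063). CDKN1A, the cell cycle inhibitor p21 and a reference target outside the set, read 142 and 141 CPM in SCR DMSO and 157 and 152 in SCR MPS1i. CDKN1A read 152 and 143 against 179 and 189 in STING, 169 and 144 against 171 and 173 in MAVS, and 191 and 149.7 against 237 and 213 in DKO. Its changes were 0.13 ± 0.11 in SCR, 0.32 ± 0.11 in STING, 0.13 ± 0.11 in MAVS and 0.40 ± 0.11 in DKO (adjusted p = 0.35, 0.049, 0.42 and 0.028). The STING and DKO calls of CDKN1A were lost without STING DMSO replicate 1 (0.13), STING DMSO replicate 2 (0.27), STING MPS1i replicate 1 (0.12) or STING MPS1i replicate 2 (0.25) or without DKO DMSO replicate 2 (0.086) or DKO MPS1i replicate 1 (0.19), and in DKO also with only the compared groups fitted (0.12).

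**Figure D5:**
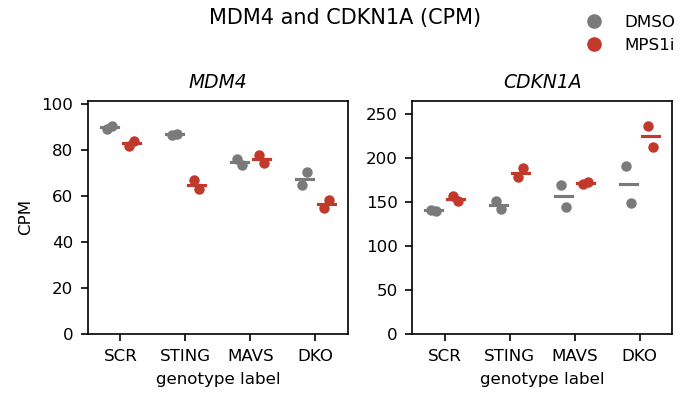
CPM (y axis, from 0) of MDM4 and CDKN1A by genotype label (x axis), grey for the 2 DMSO and red for the 2 MPS1i libraries, with a bar at the mean. MDM4 goes from 86.5 and 87.0 to 66.8 and 62.9 CPM in STING, and CDKN1A from 191 and 149.7 to 237 and 213 CPM in DKO.

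Of 24 regulators of p53, 23 were tested, CDKN2A having 0 counts in all 16 libraries. In SCR 8 rose and 9 fell, in STING 5 and 8, in MAVS 8 and 7, and in DKO 1 and 5, with medians of 0.07, -0.06, 0.02 and -0.08 beside 0.03, 0.00, 0.02 and 0.00 for all genes. Over all genes tested 26% rose and 24% fell in SCR, 15.5% and 13.9% in STING, 17.1% and 16.3% in MAVS and 6.53% and 8.22% in DKO. The DNA damage kinases ATM and CHEK1 fell in all 4 genotypes, ATM by 0.49, 0.40, 0.27 and 0.22 on the log2 scale. The DKO call of ATM was lost without DKO DMSO replicate 2 (0.068) and the MAVS call of CHEK1, -0.19 ± 0.07, without MAVS DMSO replicate 2 (0.1) or MAVS MPS1i replicate 2 (0.14). PRKDC, the catalytic subunit of DNA-PK, fell by 0.72, 0.33, 0.31 and 0.21. PPP2R5C, a PP2A subunit that acts on p53, fell by 0.71 in SCR and stood at -0.02 ± 0.05 in DKO. CHEK2, the checkpoint kinase that phosphorylates p53, rose by 0.82 ± 0.08 in SCR and fell by 0.36 in DKO, the latter lost without DKO MPS1i replicate 2 (0.17) and with only the compared groups fitted (0.06). LATS2, a Hippo pathway kinase that inhibits MDM2, rose by 0.84 ± 0.05 in SCR, 0.44 ± 0.05 in STING and 0.60 ± 0.05 in MAVS, and stood at 0.04 ± 0.05 in DKO.

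A second list of 32 genes described as p53 targets, none of them members, had 31 tested. In SCR 14 rose and 5 fell, in STING 12 and 6, in MAVS 12 and 4, and in DKO 7 and 3, with medians of 0.29, 0.25, 0.14 and 0.10. These counts stand beside the same shares of all genes, 26% and 24% in SCR down to 6.53% and 8.22% in DKO, and the same all-gene medians. The largest rises, TRIM22 (5.20 ± 0.07 in SCR, 0.39 ± 0.08 in DKO) and PML (2.80 ± 0.08 and 0.35 ± 0.09), belong to genes that interferon also induces, and the PML call in DKO was lost without DKO DMSO replicate 2 (0.18), DKO MPS1i replicate 1 (0.063) or DKO MPS1i replicate 2 (0.072). SESN2, a sestrin that ATF4 also induces, fell by 0.96 in SCR, 0.36 in STING, 0.47 in MAVS and 1.01 in DKO on the log2 scale (adjusted p = 2e-10, 0.0031, 0.0001 and 3.7e-09).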

How the data were processed

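RNA-seq was measured in 16 libraries (8 groups of 2). The authors deposited raw counts per gene, 1 column per library. The submitters' processing notes name Trim Galore, cutadapt, Trimmomatic, STAR, featureCounts and GRCh38. Versions, the strand setting, the annotation release and the treatment of reads shared between genes are not given in the sources used here, so overlapping and antisense genes and near-identical copies are uncertain. From the counts, genes were filtered (filterByExpr, minimum count 10, minimum total 15), scaled by TMM and fitted over all 16 libraries with edgeR 4.0.16 (quasi-likelihood F-test, robust, R 4.3.3, 8 residual degrees of freedom). Each of 10 comparisons was adjusted by the Benjamini-Hochberg method over 17950 genes and called at 0.05. Standard errors were taken from the fold change and its F statistic. The code was run on simulated counts with independent libraries and the same spread for every gene, which does not check the calls made here.

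The members, the other gene lists and the comparisons were chosen with earlier results of these data known. Every member is accounted for. Members are given library by library where they were among the largest called changes of a comparison or moved one way in all genotypes. From the other lists, MDM4 and called genes of smallest adjusted p are named. Alternatives were DESeq2 1.42.0, RLE scaling, no filter, a filter of at least 1 CPM in 2 libraries, only the compared groups, the replicate block, and each library left out. Protein sequences were not used here, and some genes are not reported here.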

Additional observations from a re-analysis of the deposited data

Results flagged for a closer look

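The response to MPS1i differed from that of SCR, by a test of the difference itself in edgeR at an adjusted p under 0.05, for 35 pairs of gene and genotype among the 33 members and MDM4, the genes considered here. Over all 17950 genes tested, the STING difference passed as higher for 9.97% and as lower for 9.55%. These shares were 2.92% and 4.52% in MAVS and 13.5% and 14.5% in DKO. In STING the difference (log2, STING minus SCR) was 1.04 for SPATA18, 0.80 for CYFIP2, 0.41 for EDA2R, 0.25 for EI24, 0.53 for DDB2, 0.28 for RRM2B, 1.10 for ZMAT3, 0.26 for CCNG1, 0.67 for TP53INP1, -0.31 for PLK2, -0.75 for SERTAD1, 0.39 for CMBL, 0.33 for TIGAR and -0.31 for MDM4. In MAVS the difference (log2, MAVS minus SCR) was 0.48 for SPATA18, 0.63 for ZMAT3, 0.25 for CCNG1, 0.44 for TP53INP1 and -0.25 for PLK2. In DKO the difference (log2, DKO minus SCR) was 1.15 for SPATA18, 0.78 for CYFIP2, 0.65 for EDA2R, 0.43 for TRIAP1, 0.27 for EI24, 0.62 for DDB2, 0.31 for RRM2B, 1.47 for ZMAT3, 0.39 for CCNG1, 0.65 for TP53INP1, 0.34 for SESN1, -0.48 for PLK2, -0.86 for SERTAD1, 0.45 for CMBL, 0.45 for TIGAR and 0.26 for FBXO22. The 3 sets share the SCR libraries and are not independent. Among members, SERTAD1, EI24 (both in STING and DKO), CCNG1 and TIGAR (STING), SPATA18, CCNG1, TP53INP1 and PLK2 (MAVS) and SESN1 and FBXO22 (DKO) lost the call when a single library was left out. The summed immune, stromal and lung epithelial markers were each higher after MPS1i in every genotype. The epithelial sum was mostly KRT8 and KRT18, while CDH1 and EPCAM were lower in every genotype. The part of these markers in these differences was not tested.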

How the results depend on the processing

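Of 121 called pairs of member and comparison, 63 kept the call under every alternative, 58 lost it under at least 1, each of them without some single library, and none reversed. The matching share of lost calls over all genes was not computed, so this loss cannot be called particular to the members. Counts of members past the threshold moved by over 1.5 times in the following cases. With only the compared groups fitted, lower members were 0 for MPS1i in DKO, 2 for STING under DMSO and 1 for DKO under DMSO, and higher members 2 for STING under DMSO. RLE scaling gave 1 lower for MPS1i in DKO. The filter of at least 1 CPM gave 2 higher for STING under DMSO, and no filter gave 4 lower there and 1 higher for MAVS under DMSO. DESeq2 gave 1 lower for DKO under DMSO and 1 lower for the difference of STING from SCR. Leaving out 1 library at a time gave, for MPS1i, 6 to 9 higher in STING, 6 to 7 higher and 5 to 10 lower in MAVS, and 6 to 8 higher and 0 to 2 lower in DKO. Under DMSO it gave 1 to 2 higher and 0 to 2 lower in STING, 0 to 1 higher and 0 to 2 lower in MAVS, and 1 to 3 lower in DKO. For the differences from SCR it gave 1 to 2 lower in STING, 1 to 3 higher and 0 to 1 lower in MAVS, and 1 to 2 lower in DKO. Over all genes, fitting only the compared groups gave 661 higher and 968 lower for MPS1i in DKO, against 1173 and 1475. Without STING MPS1i replicate 2 these were 1725 and 1639 in STING (against 2778 and 2491), and 1646 higher without STING DMSO replicate 2. Without DKO MPS1i replicate 1 they were 563 and 870 in DKO, and 674 higher without replicate 2. Under DMSO, omitting 1 library took STING down to 443 higher and 407 lower (against 844 and 982) and MAVS down to 254 and 85 (against 715 and 462). The higher differences of MAVS from SCR fell to 290 and 342 without MAVS DMSO replicate 1 and MAVS MPS1i replicate 1 (against 524). The cause was not tested.

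Same-numbered libraries showed no strong shared deviation, with correlations over 28 pairs of groups from -0.13 to 0.18 (median 0.02). This cannot tell whether libraries with the same number were cultured or prepared together. With the replicate block, 2 members were lower in STING under DMSO and 1 member call was lost, TP53INP1 in the difference of MAVS from SCR (adjusted p = 0.0524, edgeR). The block also added PPM1D, higher after MPS1i in MAVS (0.20, adjusted p = 0.042), and CYFIP2 in the difference of MAVS from SCR (0.35, 0.048). Other alternatives added calls too, such as FDXR in the difference of STING from SCR without a filter on low counts (0.46, 0.0455). A group left with 1 library was assumed to vary like the others. With 2 libraries a group, small changes such as those of KITLG and MDM2 lie near what these data can resolve.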
